A study of Mus musculus with 12 samples.

Results

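The cytosolic mevalonate pathway was followed at the mRNA level in mouse liver, through the genes of 7 enzymes that lead from acetyl-CoA to farnesyl pyrophosphate (Acat2, Hmgcs1, Mvk, Pmvk, Mvd, Idi1 and Fdps) and through Srebf2, the gene of the transcription factor SREBP-2. These 8 genes were taken by name from the 48526 genes of the deposited table, and all 8 were among the 11968 genes that were tested. The livers came from female and male C57BL/6J mice, an inbred strain, that had eaten chow or chow with simvastatin for 4 weeks. Females and males on each diet made 4 groups with 3 livers each, 12 in all, and every liver was from a different mouse. The dose was 0.1 g simvastatin per kg, which the sample series states per body weight and the study's methods per food weight. The labels also name 1 diet formulation for all groups, which the methods give as that of the simvastatin diet, with another for chow. The labels give no age, and the methods put the start of the diets in young adulthood. The sources used here do not give the hour of collection or whether the mice had eaten.

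In this pathway, acetyl-CoA units are joined to HMG-CoA, HMG-CoA reductase turns HMG-CoA into mevalonate, and mevalonate is phosphorylated, decarboxylated and condensed into isoprenoids, from which cholesterol, ubiquinone, dolichol and protein prenyl groups are made. Statins inhibit HMG-CoA reductase. When sterols in the endoplasmic reticulum are low, the SREBP-2 precursor is carried to the Golgi and cleaved, and its released part enters the nucleus and raises transcription of the pathway's genes, so that the amount of Srebf2 mRNA is not itself a measure of SREBP-2 activity. The liver is a main site of cholesterol synthesis, and the pathway there also follows feeding and the time of day. The question here was whether these mRNAs differed between statin and chow in each sex, liver by liver.

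The sequences before the start sites are shown because the levels of the 7 enzyme genes varied together from liver to liver and because sterol control is exerted there. RefSeq (GRCm38.p6) held 8 start-site windows for 7 of the 8 genes, with 2 for Pmvk; Fdps was not matched. Each window took 250 bases before and 50 bases after the start, and 32817 windows of this kind over the genome served as background. The sterol regulatory element was searched in 2 overlapping forms on both strands. TCACNCCAC was found in 1.24% of all windows and in 1 of the 8, that of Hmgcs1, 137 bases before the start. CACCCCAC was found in 2.87% of all windows and in 2 of the 8, those of Hmgcs1 and Acat2, the latter 181 bases before the start. CCAAT, the NF-Y motif, was in 37.4% of all windows and in 6 of the 8, and GGGCGG, the Sp1 motif, in 35.6% and in 6 of the 8. CACGTG, the E-box, was in 7.15% of all windows and in 0 of the 8. These are matches of letters, not binding sites, and absence of a match says only that these letters are not in the window. Distances are counted from the RefSeq start. The Acat2 stretch below stops before the GENCODE gene start, which lies further upstream. Below are the stretches before the annotated gene start for the genes with a sterol element match (Hmgcs1 and Acat2), for the enzyme gene whose levels followed the shared pattern most closely (Mvd), and for Srebf2, the regulator gene, whose levels were not close to it. They lie at chr13:119690101-119690350 (plus strand), chr17:12960748-12960975 (minus strand), chr8:122443423-122443672 (minus strand) and chr15:82147019-82147180 (plus strand), each written 5′ to 3′ on the strand of its gene. Capitals mark matches to the sterol element forms and to CCAAT or its reverse complement ATTGG.
Hmgcs1: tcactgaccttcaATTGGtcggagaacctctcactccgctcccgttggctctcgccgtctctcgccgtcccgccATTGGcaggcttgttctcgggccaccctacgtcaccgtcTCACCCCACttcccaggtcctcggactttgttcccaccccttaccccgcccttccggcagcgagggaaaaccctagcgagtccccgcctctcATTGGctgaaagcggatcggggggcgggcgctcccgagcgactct
Acat2: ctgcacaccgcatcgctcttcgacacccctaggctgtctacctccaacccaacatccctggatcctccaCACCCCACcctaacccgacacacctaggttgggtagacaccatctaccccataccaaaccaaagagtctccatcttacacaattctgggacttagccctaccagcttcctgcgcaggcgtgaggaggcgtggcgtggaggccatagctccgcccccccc
Mvd: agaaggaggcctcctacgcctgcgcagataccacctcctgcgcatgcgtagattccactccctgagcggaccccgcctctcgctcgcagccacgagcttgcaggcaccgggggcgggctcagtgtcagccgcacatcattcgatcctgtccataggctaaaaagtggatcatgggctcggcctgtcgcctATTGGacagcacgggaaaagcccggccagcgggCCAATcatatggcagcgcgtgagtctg
Srebf2: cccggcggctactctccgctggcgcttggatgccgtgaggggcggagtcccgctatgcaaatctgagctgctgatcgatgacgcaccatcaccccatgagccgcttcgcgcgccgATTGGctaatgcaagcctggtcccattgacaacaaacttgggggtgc

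Between 46066381 and 60419223 reads were counted per liver, so 3 counts corresponded to between 0.0497 and 0.0651 CPM (each gene's counts scaled to the total of its library). The study's methods state an average read depth per sample that is lower than all of these totals. Levels below are TMM-normalized CPM, that is, CPM after scaling each library by a trimmed mean of log ratios, and on this scale the lowest value of any of the 8 genes was 6.46 CPM. Markers of hepatocytes (8 genes) summed to between 94049 and 160570 CPM, whereas 4 muscle markers and 4 adipose markers summed to at most 0.816 and 2.65 CPM. In bulk tissue, a change in the amount of an mRNA per cell and a change in the share of cells that make it cannot be told apart.

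Positions follow the GENCODE vM21 annotation of GRCm38. Acat2 lies at chr17:12942890-12960747 on the minus strand (9 exons in its longest coding transcript), Hmgcs1 at chr13:119690379-119708260 on the plus strand (11 exons), Mvk at chr5:114444269-114460591 on the plus strand (11 exons), and Pmvk at chr3:89454541-89469013 on the plus strand (5 exons). Mvd lies at chr8:122433601-122443422 on the minus strand (10 exons), Idi1 at chr13:8885501-8892451 on the plus strand (5 exons), Fdps at chr3:89093588-89101959 on the minus strand (11 exons), and Srebf2 at chr15:82147181-82205379 on the plus strand (19 exons). The counts of 3 enzymes are less certain because reads can be shared with near copies. For Fdps, 64.1% of the 50-base windows of its transcripts also occur in transcripts of other genes, and 81.3% of its longest coding transcript overlaps exons of Gm43738 on the same strand, a gene listed at 0 CPM in every liver. For Acat2, 40.7% of windows occur in its close relative Acat3, and for Idi1 20.0% occur in other genes, most of them in Gm13502. None of the windows of Hmgcs1, Mvk, Pmvk, Mvd or Srebf2 was shared. Hmgcs1 overlaps the antisense gene Gm48342, and Idi1 overlaps Gm48574, a gene on the opposite strand. The libraries kept strand, but how the counting used strand and treated overlaps is not given in the sources used here.

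Compared per kilobase of the longest coding transcript, Hmgcs1, Pmvk and Acat2 had the most mRNA. In female chow livers Hmgcs1 stood at 91.1 ± 32.3 CPM per kb (SD, n = 3), Pmvk at 88.0 ± 16.4 and Acat2 at 68.5 ± 17.0, and these neighbours did not differ beyond their spread. A lower set followed, with Mvd at 24.1 ± 9.56, Idi1 at 14.8 ± 6.26, Srebf2 at 12.8 ± 2.14, Mvk at 12.4 ± 2.85 and Fdps at 11.2 ± 4.72 CPM per kb, again with overlapping neighbours. In male chow livers the same 3 genes led, at 53.4 ± 8.29 for Hmgcs1, 34.1 ± 9.78 for Pmvk and 28.1 ± 5.16 for Acat2, and the other 5 genes lay between 6.91 ± 0.502 (Fdps) and 13.2 ± 1.27 (Mvk) CPM per kb. The places of Acat2, Idi1 and Fdps in these orders are less certain because of the shared sequence described above.

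No difference between statin and chow passed the test for any of the 8 mRNAs in either sex. In edgeR's quasi-likelihood test, 0 of the 8 had an adjusted p under 0.05 in females, where 0.100% of all genes tested did (12 of 11968), and 0 of the 8 in males, where the share over all genes was 0%. At an unadjusted p under 0.05 the count was again 0 of the 8 in females, against 10.5% of all genes, and 0 of the 8 in males, against 1.96% of all genes. DESeq2, which called 270 genes in females and 4 in males, called 0 of the 8 in each sex. Statin and chow livers overlapped for all 8 genes in both sexes, while 12% of all genes in females and 7.95% in males had groups that did not overlap. The median log2 fold change of the 8 genes was -0.15 in females, beside 0.013 over all genes, and 0.14 in males, beside 0.0036 over all genes. These results do not show that the mRNAs were the same, since the 95% intervals given below were wide.

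The enzymes before mevalonate are Acat2, the cytosolic thiolase that joins acetyl-CoA units, and Hmgcs1, the cytosolic HMG-CoA synthase. Acat2 was at 181.8, 170.0 and 110.5 CPM in the female chow livers and at 168.1, 74.3 and 57.6 CPM in the female statin livers. In males it was at 76.6, 55.4 and 57.8 CPM on chow and at 50.6, 59.9 and 102.5 CPM on statin. The first female statin liver lay within the chow range and the other 2 below it, and the third male statin liver lay above all male chow livers. With statin, its log2 fold change came to -0.62 in females (SE 0.37, 95% interval -1.44 to 0.19, edgeR adjusted p = 0.653) and 0.17 in males (SE 0.37, interval -0.65 to 0.98, edgeR adjusted p = 1.00).

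Hmgcs1 was at 394.8, 364.2 and 187.4 CPM in the female chow livers and at 521.5, 195.8 and 275.8 CPM in the female statin livers. Its male values were 207.8, 152.9 and 194.8 CPM on chow and 147.4, 114.5 and 342.1 CPM on statin. A single statin liver in each sex was above all chow livers of that sex, and in males the other 2 were below all chow livers. Its log2 fold change was 0.07 in females (SE 0.43, interval -0.87 to 1.01, edgeR adjusted p = 0.993) and 0.12 in males (SE 0.43, interval -0.82 to 1.06, edgeR adjusted p = 1.00).

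The kinases Mvk and Pmvk phosphorylate mevalonate in turn, and Mvd decarboxylates the product to isopentenyl pyrophosphate. Mvk was at 24.4, 21.9 and 15.2 CPM in the females on chow, 32.3, 15.4 and 24.1 CPM in those on statin, 24.0, 21.9 and 19.8 CPM in the males on chow and 16.9, 15.7 and 32.1 CPM in those on statin. The highest value came from a statin liver in both sexes. Its log2 fold change was 0.22 in females (SE 0.30, interval -0.44 to 0.88, edgeR adjusted p = 0.931) and -0.02 in males (SE 0.30, interval -0.68 to 0.63, edgeR adjusted p = 1.00).

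On chow, the female livers had 113.7, 118.8 and 82.6 CPM of Pmvk, and on statin they had 93.7, 63.0 and 34.8 CPM. In males it was at 53.9, 31.8 and 36.5 CPM on chow and at 39.0, 54.5 and 96.1 CPM on statin. In females 2 of 3 statin livers were below all chow livers, and in males 2 of 3 were above all chow livers. The log2 fold change was -0.72 in females (SE 0.37, interval -1.52 to 0.09, edgeR adjusted p = 0.551) and 0.63 in males (SE 0.37, interval -0.17 to 1.44, edgeR adjusted p = 1.00).

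Mvd was at 51.7, 52.5 and 23.0 CPM in the females on chow, 58.9, 21.3 and 18.3 CPM in those on statin, 25.1, 12.4 and 14.9 CPM in the males on chow and 13.3, 13.7 and 47.1 CPM in those on statin. Each statin group held 1 liver above all chow livers of its sex. Its log2 fold change was -0.37 in females (SE 0.56, interval -1.58 to 0.84, edgeR adjusted p = 0.940) and 0.50 in males (SE 0.56, interval -0.72 to 1.72, edgeR adjusted p = 1.00).

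Idi1 interconverts isopentenyl and dimethylallyl pyrophosphate, and Fdps condenses them to farnesyl pyrophosphate. Idi1 was at 49.0, 61.2 and 24.1 CPM in the females on chow, 98.6, 23.4 and 41.5 CPM in those on statin, 44.6, 26.6 and 25.5 CPM in the males on chow and 23.4, 29.6 and 67.7 CPM in those on statin. Fdps was at 20.6, 17.5 and 8.11 CPM in the females on chow, 16.2, 9.26 and 6.46 CPM in those on statin, 10.1, 8.79 and 9.73 CPM in the males on chow and 7.10, 7.53 and 16.45 CPM in those on statin. The values of both genes spread further within the statin groups than between the group means. The log2 fold change of Idi1 was 0.28 in females (SE 0.52, interval -0.86 to 1.42, edgeR adjusted p = 0.956) and 0.32 in males (SE 0.53, interval -0.82 to 1.46, edgeR adjusted p = 1.00). That of Fdps was -0.53 in females (SE 0.41, interval -1.42 to 0.35, edgeR adjusted p = 0.767) and 0.12 in males (SE 0.41, interval -0.77 to 1.00, edgeR adjusted p = 1.00).

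Srebf2 was at 77.3, 60.6 and 57.0 CPM in the females on chow, 59.1, 74.5 and 84.0 CPM in those on statin, 50.7, 52.2 and 67.4 CPM in the males on chow and 59.7, 42.3 and 56.0 CPM in those on statin. In the male chow livers alone, Fdps (SD 0.096 on the log2 scale) and Mvk (0.13) varied less than Srebf2 (0.22). By the SD pooled over the groups, Srebf2 was the most even of the 8 genes, and its intervals were the narrowest. The log2 fold change was 0.16 in females (SE 0.18, interval -0.24 to 0.56, edgeR adjusted p = 0.894) and -0.11 in males (SE 0.18, interval -0.51 to 0.29, edgeR adjusted p = 1.00).

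**Figure D1:**
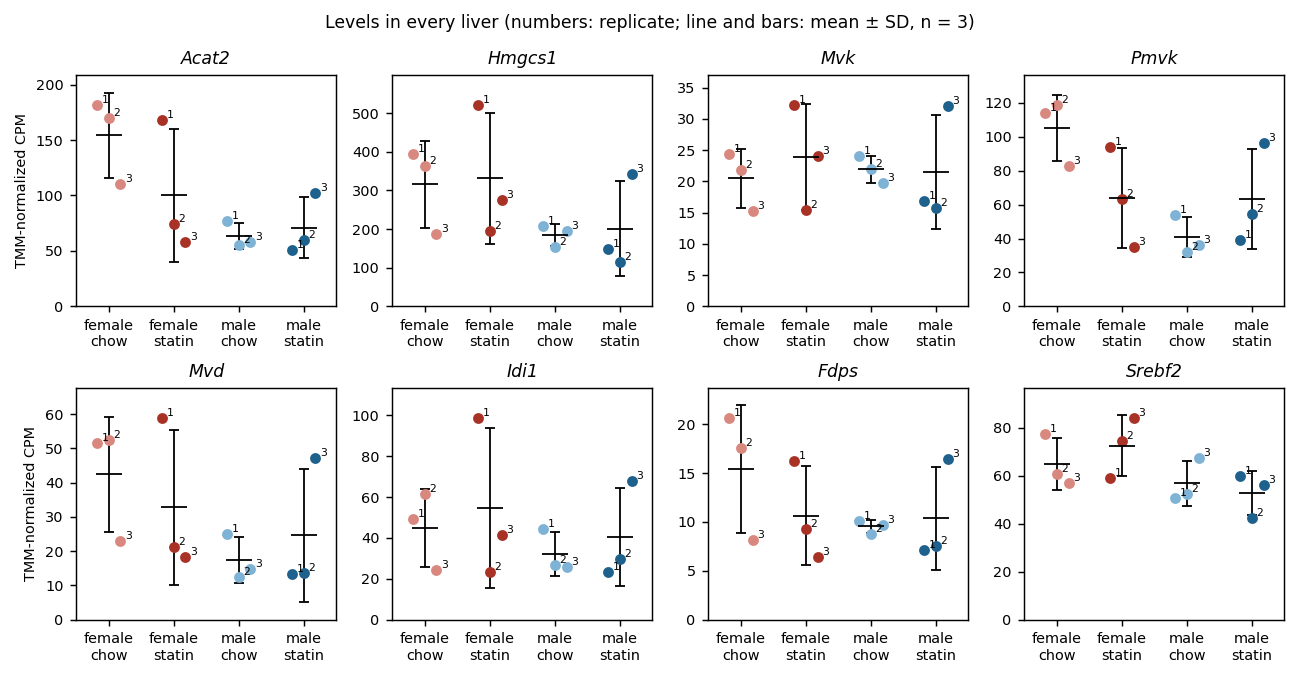
TMM-normalized CPM (vertical axes, from 0, with a scale of its own for each gene) of the 8 genes in every liver by group; numbers are replicates, and the horizontal line and bars are the mean ± SD of 3 livers. Female statin replicate 1 and male statin replicate 3 are the highest of their groups for all 7 enzymes, as with Hmgcs1 at 521.5 and 342.1 CPM, and not for Srebf2.

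The response to statin was compared between the sexes through the interaction term. By edgeR's adjusted p, 0 of the 8 genes and 0% of all genes passed. DESeq2 called 130 genes in this term and 0 of the 8. At an unadjusted p under 0.05, 1 of the 8 genes passed, against 8.01% of all genes. That gene was Pmvk, for which the response of females was below that of males by a log2 difference of -1.35 (SE 0.52, interval -2.49 to -0.21, unadjusted p = 0.0239, edgeR adjusted p = 0.503). For the other 7 genes the difference lay between -0.87 (Mvd, interval -2.59 to 0.85) and 0.27 (Srebf2, interval -0.30 to 0.84).

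Females and males were also compared on chow alone. Pmvk was higher in female than in male chow livers, with a log2 difference of 1.37 (SE 0.38, interval 0.55 to 2.18, edgeR adjusted p = 0.0370), and its 3 female livers (82.6 to 118.8 CPM) lay above the 3 male ones (31.8 to 53.9 CPM). Acat2 had nearly the same difference, 1.28 (SE 0.38, interval 0.46 to 2.11), with groups that did not overlap, and just missed the threshold (edgeR adjusted p = 0.0502). In all, 1 of the 8 genes was called higher in females, against 5.96% of all genes, and 2 of the 8 had non-overlapping groups with females higher, against 18.5% of all genes, so that neither count says anything particular to the pathway. At an unadjusted p under 0.05, 3 of the 8 were higher in females, against 13.3% of all genes, the third being Mvd at 1.28 (SE 0.57, interval 0.05 to 2.51, edgeR adjusted p = 0.184). The median of the 8 log2 differences was 0.73, beside -0.0094 over all genes. Hmgcs1 (0.77, interval -0.18 to 1.72), Fdps (0.69, interval -0.19 to 1.58), Idi1 (0.47, interval -0.67 to 1.62), Srebf2 (0.19, interval -0.21 to 0.60) and Mvk (-0.10, interval -0.75 to 0.56) did not pass.

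The call for Pmvk was lost when any 1 of the 6 chow livers (3 female, 3 male) or male statin replicate 2 was left out, with adjusted p between 0.0521 and 0.127 in edgeR and the log2 difference between 1.22 and 1.62. It was also lost with library size alone as the normalization (edgeR adjusted p = 0.0519). Acat2 passed in some alternatives, its adjusted p ranging from 0.00194 to 0.150. Cell-type markers differed between these groups too, where 10.4% of all genes were called in either direction. The Kupffer cell and macrophage markers summed to between 578 and 755 CPM in female and between 348 and 543 CPM in male chow livers (3 of 8 called), the stellate cell and fibroblast markers to between 490 and 564 and between 325 and 351 CPM (3 of 8 called), and the endothelial markers to between 387 and 397 and between 249 and 326 CPM (1 of 8 called). Of the 8 hepatocyte markers 3 were called, and their sums overlapped. The endothelial count was near the share over all genes, and the directions of single called markers are not given here. No defining marker of these lists was at 0 in all livers, and the part of cell makeup in the sex difference was not tested.

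**Figure D2:**
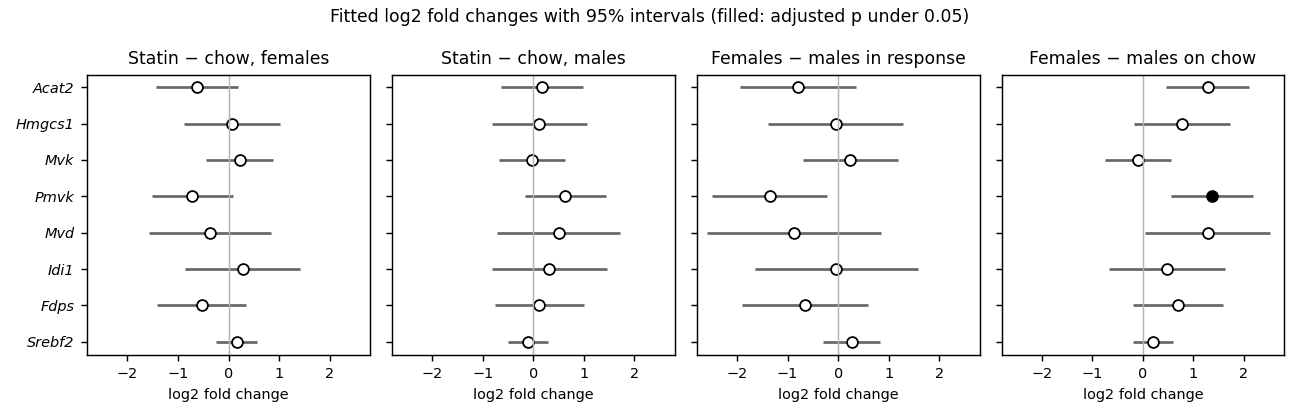
Fitted log2 fold changes (horizontal axes) with 95% intervals for the 8 genes in 4 comparisons from 1 edgeR fit of 12 livers: statin minus chow in females, in males, the difference between these, and females minus males on chow. All intervals for statin include 0 in each sex; the filled point marks Pmvk, at 1.37 between the sexes on chow.

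The enzymes varied between livers of the same group far more than most genes. The pooled within-group SD on the log2 scale was 0.787 for Mvd, 0.761 for Idi1, 0.630 for Hmgcs1, 0.549 for Fdps, 0.535 for Pmvk, 0.530 for Acat2 and 0.417 for Mvk, against a median of 0.209 over all genes tested. Each of the 7 exceeded at least 94.0% of all genes, and Mvd exceeded 99.7%. Srebf2 had an SD of 0.242, above 62.1% of all genes.

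This spread was shared among the enzymes. Female statin replicate 1 had the highest level of its group for 7 of 7 enzymes, with a mean deviation of 0.79 (log2) from the group mean, and male statin replicate 3 likewise for 7 of 7, with a mean deviation of 0.80. On chow, male replicate 1 was highest for 7 of 7 (mean deviation 0.31), and female replicate 3 was lowest for 7 of 7 (mean deviation -0.59). The share of all genes that were highest or lowest in these livers was not counted. These counts are therefore not read as particular to the enzymes. Srebf2 deviated by -0.28 in female statin replicate 1 and by -0.15 in male chow replicate 1, where it was the lowest of its group in both, and by 0.10 in male statin replicate 3, where it was in the middle. In female chow replicate 3 it was the lowest of its group, as the enzymes were, with a deviation of -0.17. Livers are the only replicates here, so that each of these patterns rests on single livers. Over 7641 genes, deviations from group means correlated at 0.70 between female statin replicate 1 and male statin replicate 3. Their likeness was thus not limited to the enzymes. Each also correlated with male chow replicate 1, at 0.67 and 0.54. Female chow replicate 3 correlated with these livers at 0.054, 0.083 and -0.069, in the order named.

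Other measures of these livers are given beside the pattern. Genes with transcripts of 5000 bases or more, relative to genes with transcripts under 1500 bases, stood at -0.40 (log2, against the mean of all livers) in female statin replicate 1 and at -0.38 in male statin replicate 3, the lowest values of the 12 livers; the highest were 0.48 in male statin replicate 1 and 0.41 in female statin replicate 2. After a correction for transcript length in each liver, the mean deviations of the 7 enzymes in the 2 high livers were 0.74 and 0.75, close to the uncorrected values, and the SD of Mvd was 0.725. Kupffer cell and macrophage markers summed to 925 CPM in female statin replicate 1 (520 and 735 CPM in the other 2) and to 367 CPM in male statin replicate 3 (338 and 436 CPM in the other 2). Hepatocyte markers summed to 124850 CPM and 99759 CPM in the 2 livers, the first below both other livers of its group (145490 and 160570 CPM) and the second between the other 2 of its group (98531 and 113830 CPM). Lymphocyte and neutrophil markers were highest of the group in both livers (11.9 CPM beside 8.19 and 9.20, and 6.39 CPM beside 3.65 and 5.80), as were intestine and pancreas markers (92.4 CPM beside 42.6 and 60.2, and 101.47 CPM beside 56.2 and 82.2). Endothelial markers were lowest of the group in both (306 CPM beside 343 and 435, and 261 CPM beside 280 and 358). On chow, female replicate 3, with the lowest enzyme levels, had the highest Kupffer cell and macrophage sum of its group (755 CPM), and female replicate 1, whose enzymes deviated by 0.31 on average, had the highest long-to-short contrast of its group (0.14). Male chow replicate 1, with the highest enzyme levels of its group, had the lowest long-to-short contrast of its group (-0.097, beside 0.055 and 0.27) and the lowest endothelial sum (249.36 CPM, beside 318 and 326). The part of cell makeup in the pattern was not tested.

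Clock genes also varied between these livers. Of the 13 tested, 9 were highest and 3 lowest of their group in female chow replicate 3, 6 were lowest and 4 highest in female statin replicate 1, 7 were lowest and 2 highest in male statin replicate 3, and 5 were lowest and 4 highest in male chow replicate 1. In male chow replicate 3, whose enzymes deviated by -0.099 on average, 8 were highest and 3 lowest. In male statin replicate 1, whose enzymes deviated by -0.45 on average, 7 were highest and 4 lowest. Per1, named after its values were seen, was at 32.4, 35.3 and 66.8 CPM in the females on chow and at 34.9, 44.99 and 54.5 CPM in those on statin. Being 1 gene picked from 13, Per1 does not stand for the list. In males Per1 was at 28.6, 27.2 and 53.7 CPM on chow and at 53.5, 51.6 and 44.6 CPM on statin. The part of collection time in the enzyme pattern was not tested.

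**Figure D3:**
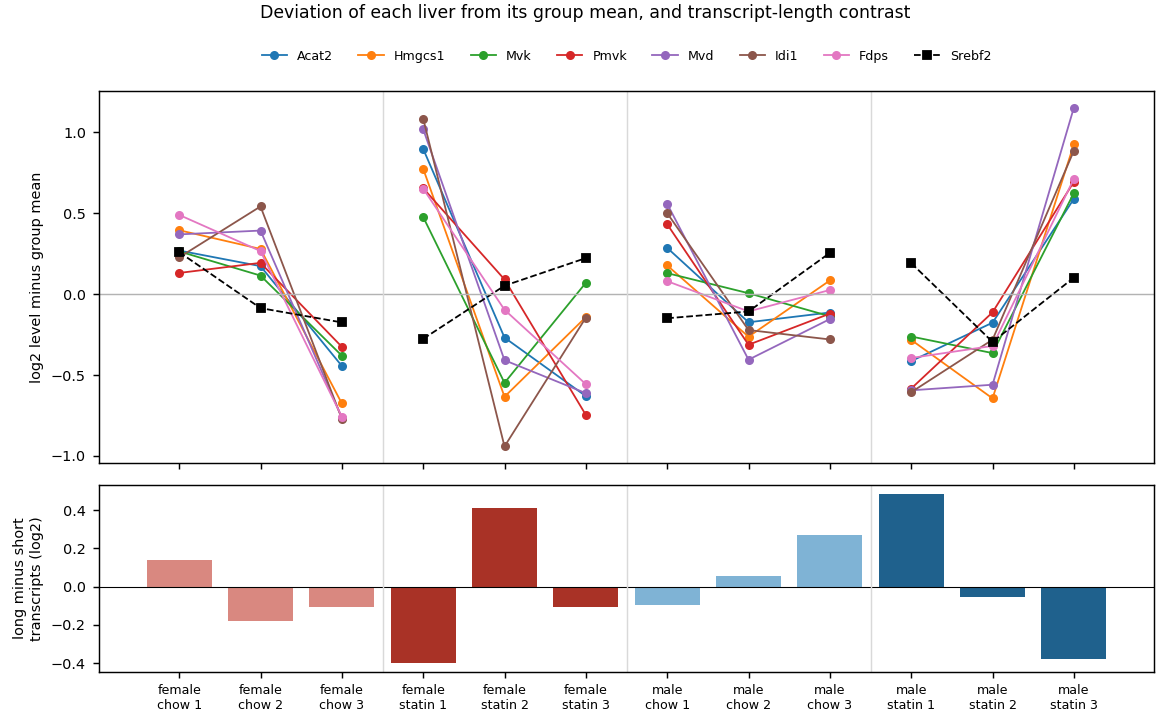
Upper panel: log2 level of each gene minus its group mean (vertical axis) in each of the 12 livers, with the 7 enzymes in colour and Srebf2 as black squares; lines only join the points of 1 gene. Lower panel: median log2 deviation of genes with long transcripts minus that of genes with short transcripts; the 2 livers with the highest enzyme deviations (0.79 and 0.80 on average) have the lowest values there (-0.40 and -0.38).

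The sign of several statin fold changes depended on single livers. Since the 2 livers left out first were chosen as those with the highest enzyme levels, lower fold changes without them follow from that choice. Without female statin replicate 1, the log2 fold changes in females were -1.22 for Acat2, -1.09 for Pmvk, -1.09 for Mvd, -0.96 for Fdps, -0.46 for Idi1, -0.42 for Hmgcs1 and -0.06 for Mvk, so that all 7 were negative where 3 had been positive. Of the 8 genes 3 then had an unadjusted p under 0.05 (Acat2, Pmvk and Fdps), against 14% of all genes, and the lowest adjusted p was 0.113, for Acat2 (edgeR). Without male statin replicate 3, the log2 fold changes in males were -0.50 for Hmgcs1, -0.43 for Mvk, -0.38 for Fdps, -0.37 for Mvd, -0.28 for Idi1, -0.20 for Acat2 and 0.20 for Pmvk, so that 6 of 7 were negative where 6 of 7 had been positive. Adjusted p in males then was 1.00 for all 8 genes (edgeR). Srebf2 kept its sign in both cases, at 0.29 in females and -0.16 in males. Other livers moved the values the opposite way in females. Without female statin replicate 3 the log2 fold change was -0.33 for Acat2, -0.41 for Pmvk and -0.07 for Mvd. It was 0.65 for Idi1 without female statin replicate 2 and -0.26 for Fdps without female chow replicate 1. With any single liver left out, 0 of the 8 genes were called in the statin comparisons or the interaction.

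**Figure D4:**
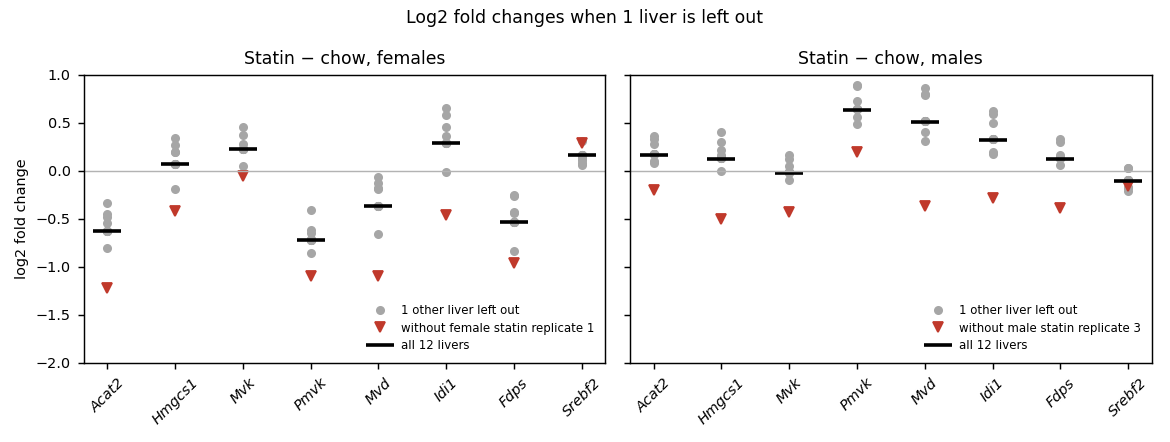
Log2 fold change with statin (vertical axis) in females and males for the 8 genes with all 12 livers (black line) and with 1 liver left out (points); triangles mark the fits without female statin replicate 1 and without male statin replicate 3. For the enzymes the triangles are the lowest points, reaching -1.22 for Acat2 in females and -0.50 for Hmgcs1 in males.

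Genes around the pathway were described by lists. Acat1, the mitochondrial thiolase, and Acat3, a close relative of Acat2, catalyse the same kind of reaction as Acat2. On chow, Acat3 was lower in females than in males, by a log2 difference of -0.85 (SE 0.25, edgeR adjusted p = 0.0477), the opposite direction to Pmvk; Acat1 stood at -0.52 (SE 0.22, edgeR adjusted p = 0.167). With statin, neither was called in either sex. Their log2 fold changes were 0.47 for Acat1 and 0.42 for Acat3 in females (edgeR adjusted p = 0.503 and 0.631) and -0.45 and -0.36 in males. Both had an unadjusted p under 0.05 in the interaction, with differences of 0.92 and 0.78, and neither passed after adjustment (edgeR adjusted p = 0.438 and 0.599). Because chow livers enter both the sex and the statin comparisons, these values are not independent of each other. Reads shared between Acat3 and Acat2 limit the comparison of their counts. Idi2, the relative of Idi1, was below the filter.

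Of the genes that handle SREBP (Scap, its escort; Insig1 and Insig2, which hold it in the endoplasmic reticulum; Mbtps1 and Mbtps2, the proteases that cleave it; and Srebf1, the related factor gene), 0 of 6 were called with statin in either sex, and 0 of 6 had an unadjusted p under 0.05. Over all genes, 0.100% in females and 0% in males were called, and 10.5% and 1.96% had an unadjusted p under 0.05. Female log2 fold changes were -0.22 for Scap, -0.34 for Insig1, -0.57 for Insig2, -0.07 for Mbtps1, -0.06 for Mbtps2 and -0.13 for Srebf1, and male ones lay between -0.29 (Srebf1) and 0.14 (Insig1). Between the sexes on chow, Insig1, itself a sterol-responsive gene, was higher in females by 0.80 (SE 0.22, edgeR adjusted p = 0.0406), and the other 5 did not pass. That is 1 of 6 called higher in females, beside 5.96% of all genes.

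Downstream, 0 of 12 genes of the squalene to cholesterol branch were called with statin in either sex. Among all genes tested, the called share came to 0.100% for the female comparison and 0% for the male one. The branch had a median log2 fold change of 0.0077 in females and 0.24 in males. On chow, 1 of 12 was called higher in females, Sqle, the squalene epoxidase (1.68, SE 0.44, edgeR adjusted p = 0.0302), beside 5.96% of all genes called higher in females, and the median was 0.38. Among 15 genes of the isoprenoid branches, which attach prenyl groups or make dolichol and ubiquinone side chains, 0 were called with statin and 1 between the sexes on chow (Chml, a Rab escort protein, higher in females by 0.84, edgeR adjusted p = 0.00847), counts near the share over all genes. Of the 13 clock genes tested, read because the pathway follows the time of day, 0 were called with statin in either sex. Over all genes, 0.100% were called in females and 0% in males. Only Ciart in males had an unadjusted p under 0.05 (0.72, SE 0.23, edgeR adjusted p = 1.00), against 1.96% of all genes in males and 10.5% in females. On chow 1 of the 13 was called, against 10.4% of all genes. This was Bhlhe41, lower in females by a log2 difference of -1.75 (edgeR adjusted p = 0.0180).

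**Figure D5:**
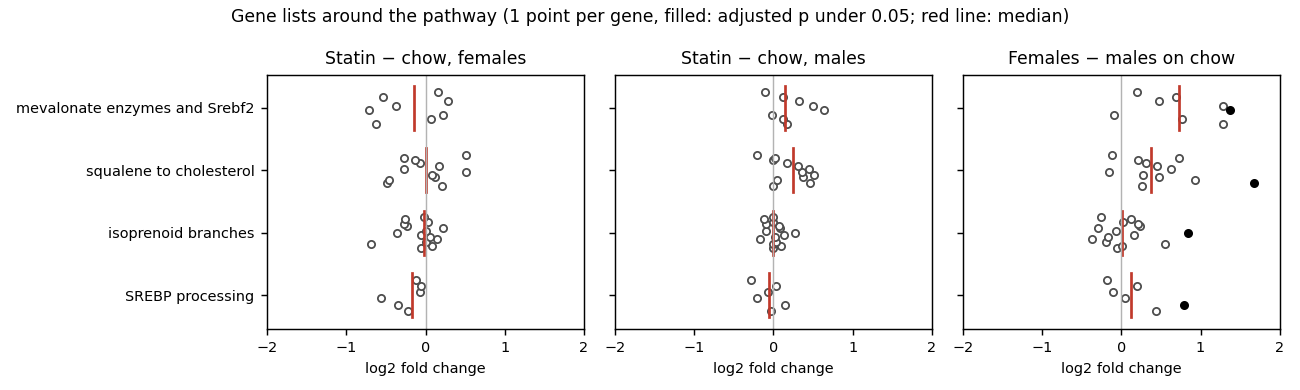
Log2 fold changes (horizontal axes) of the genes tested in each list, 1 point per gene, filled where the edgeR adjusted p is under 0.05, with the median of each list as a red line, for statin in females, statin in males and females minus males on chow. No point is filled for statin; on chow the medians are 0.73 for the mevalonate enzymes with Srebf2 and 0.38 for the squalene to cholesterol branch.

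The genes most like the enzymes were found by setting each gene's standardized log2 levels over the 12 livers beside the mean standardized levels of the 7 enzymes. The mean absolute difference was 0.122 SD for Mvd, the closest of all and itself a part of that mean, and 1.11 SD for the median gene. The 6 closest genes outside the 8 were Fkbp14, a prolyl isomerase of the endoplasmic reticulum, at 0.256 SD, Nfe2, a transcription factor known from blood cells, at 0.264 SD, Cyp51, the lanosterol demethylase, at 0.292 SD, Ebp, a sterol isomerase, at 0.311 SD, Rpl29, a ribosomal protein, at 0.315 SD, and Pstpip2, an adaptor protein of myeloid cells, at 0.323 SD. These 12 points share libraries, and the long-to-short transcript contrast given above also varied across them. Of the 25 nearest genes outside the 8, 10 were ribosomal protein genes and 5 came from the squalene to cholesterol list. The other 6 enzymes, also parts of that mean, ranged from 0.261 SD (Hmgcs1) to 0.457 SD for Pmvk, at rank 64 of all genes, and 0.591 SD for Mvk, at rank 423, so that many other genes were closer to the mean than these 2 enzymes. Srebf2 stood at 1.04 SD, close to the median gene, with 5090 genes nearer than it.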

How the data were processed

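Liver RNA of 12 mice was poly(A)-selected, made into strand-specific libraries and read as 50-bp pairs; the submitters' processing notes name STAR 2.4.1a, HTSeq, edgeR 3.28.1 and GRCm38. The authors deposited CPM values for 48526 genes, scaled to each liver's total count before any filter. They also deposited a table labelled as filtered and normalized, whose values are raw counts of 11968 genes (above 1 CPM in at least 6 livers): 100% of the CPM values were whole reads (tolerance 0.01 read), and 0 differed from that table. The counts were fitted with edgeR 4.0.16 (quasi-likelihood, TMM, 4 groups, 12 livers, no covariate, common dispersion 0.0380; R 4.3.3), with two-sided tests adjusted by Benjamini-Hochberg over all genes; a gene was called at an adjusted p under 0.05. SE is the absolute log2 fold change over the square root of F. limma 3.58.1 and DESeq2 1.42.0 were alternatives, and the fit was tested on simulated data. The members and lists were chosen with earlier results of these data known. Genes named are the 8 members, isozyme and SREBP-handling genes, examples with the smallest p in other lists, and the 6 genes of most similar profile. Same-numbered livers are different mice. The reductase gene and some genes of these lists are not reported here.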

Additional observations from a re-analysis of the deposited data

How the results depend on the processing

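In the statin comparisons and the interaction, 0 of the 8 genes were called under any alternative that tested them; Fdps fell out of the fit with CPM over 10 in at least 6 livers, and fitting each sex alone gives no interaction. The number of all genes called moved. In females it was 12, and became 270 with DESeq2, 148 with no filter on low counts, 2 with CPM over 10 in at least 6 livers, 0 with each sex fitted alone and 5 with the replicate block. In males DESeq2 called 4 genes. In the interaction DESeq2 called 130 and the fit with no filter 103. Between the sexes on chow 1250 genes were called (10.4% of those tested), 1946 with DESeq2 (16.3%), 771 with CPM over 10 (10.1%), 1511 with no filter (5.74%), 1311 and 1299 with limma (11% and 10.9%) and 1540 with the length correction (12.9%). Of the 8 genes 1 was called on chow, 0 with library size alone, 0 with the replicate block, 3 with no filter, and 2 each with DESeq2, with limma at either pseudocount (1 and 0.1) and with the length correction. The sign of Hmgcs1 turned in females with the replicate block (-0.04), and, with limma at both pseudocounts, in males (-0.03) and in the interaction (0.05). The cause was not tested.

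With each liver left out in turn, all genes called ranged from 0 to 75 in females, 0 to 0 in males, 0 to 14 in the interaction and 635 to 1586 on chow, and members called on chow from 0 to 2. Where a sign turned, the log2 fold change ranged in females from -0.42 to 0.34 (Hmgcs1), -0.46 to 0.65 (Idi1) and -0.06 to 0.46 (Mvk); in males from -0.20 to 0.36 (Acat2), -0.38 to 0.33 (Fdps), -0.50 to 0.40 (Hmgcs1), -0.28 to 0.63 (Idi1), -0.37 to 0.86 (Mvd), -0.43 to 0.16 (Mvk) and -0.21 to 0.03 (Srebf2); in the interaction from -0.55 to 0.57 (Hmgcs1), -0.80 to 0.57 (Idi1), -1.61 to 0.00071 (Mvd) and -0.04 to 0.65 (Mvk); and on chow from -0.25 to 0.07 (Mvk). Without a change of sign, the difference on chow ranged from 0.17 to 0.78 (Idi1), 0.42 to 0.99 (Fdps) and 0.04 to 0.34 (Srebf2), lowest without female chow replicate 2 for Idi1 and without female chow replicate 1 for the others, and Srebf2 ranged from 0.06 to 0.31 in females and from 0.13 to 0.41 in the interaction. At an unadjusted p under 0.05, the count in females was 0 of the 8, but 2 with no filter (Pmvk and Acat2; 6.81% of all genes), 1 with limma at either pseudocount (Pmvk; 10.4%) 1 with the length correction (Pmvk; 11.8%), and in males 1 with no filter (Pmvk; 630 of 26304 genes).

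The replicate numbers did not pair the livers. Deviations from the group means of same-numbered livers had a mean correlation of -0.109 over 18 pairs, and 3 of 12 livers correlated best with their own number. With the replicate block, Pmvk on chow had a log2 difference of 1.39 (edgeR adjusted p = 0.0661). With 3 livers per group and SE of 0.18 to 0.56 for the 8 genes in the statin comparisons, small differences were not detectable.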
